A study of Arabidopsis thaliana with 18 samples.

Results

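In dark-grown Arabidopsis seedlings, 19 probe sets had not risen by 0.5 log2 units after 1 h of far-red light, stood at least 1.5 log2 units higher after 24 h in pif4pif5 and in wild type, and lay close together in the genotypes before that. They include HPR, the peroxisomal hydroxypyruvate reductase of photorespiration, PIFI, a chloroplast protein named for the post-illumination rise of chlorophyll fluorescence, and GSTU18, a tau-class glutathione S-transferase. They were chosen by the group means of the log2 intensities, out of 22746 probe sets, under 6 conditions. The mean at 24 h minus the mean in the dark was at least 1.5 in both genotypes. The mean at 1 h minus the mean in the dark was under 0.5 in both. The pif4pif5 mean lay within 0.3 of the wild-type mean in the dark and again at 1 h. AT1G60590 and genes whose symbols begin with PSA, PSB, LHC, HEM or CHL were to be left out, which removed 0 probe sets.

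Of the 19 probe sets, 12 name 1 gene and 7 are unnamed here because the platform's gene table does not list them. Of the 12 genes, 3 have a symbol other than their locus tag. The other 9 are given by locus tag, and no role is attached to them here. The unnamed probe sets are numbered unassigned 1 to 7 by falling mean change at 24 h.

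The study compared whole seedlings of the pif4pif5 double mutant with wild-type seedlings, all in the Columbia background. All seeds had 3 days of cold and darkness, a red light pulse lasting 3 h (50 µmol/m2/s) started germination, and the dark period after it lasted 3 days. Both genotypes were collected at the end of that dark period, after 1 more hour under far-red light of 0.5 µmol/m2/s, or after 24 h under far-red light of 5 µmol/m2/s. Each of the 6 groups has 3 arrays, lettered A, B and C. They were made from amplified, biotin-labelled RNA, with an RNA amount of 100 ng given for each. The 24 h seedlings differ from the dark ones in time under light and in age, and from the 1 h ones in fluence rate as well, and these cannot be told apart. Nothing in the labels says that the replicates came from separate cultures, so p-values cover the differences among these arrays alone, part or all of which may be technical. In RNA of whole seedlings, fewer cells of a type and less RNA per cell cannot be told apart.

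Phytochrome A is the photoreceptor through which seedlings respond to continuous far-red light. PIF4 and PIF5 are basic helix-loop-helix transcription factors that bind phytochromes and restrain parts of the change from dark to light growth. During that change etioplasts become chloroplasts, and nuclear genes for light harvesting, carbon fixation and photorespiration are switched on. Photorespiration recycles the product that Rubisco makes when it takes up oxygen, by steps in the chloroplast, the peroxisome and the mitochondrion.

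The median log2 intensity of the arrays ran from 5.60 to 5.88, apart from wild-type dark replicate C at 6.16. Replicate pairs correlated at r of 0.967 to 0.997 across probe sets, and the lowest was wild-type dark replicates B and C. The gene table used here lists 0 probe sets for PIF4 and 0 for PIL6, the symbol it uses for PIF5, so the genotype labels were not checked on the mutated genes. Of 8 epidermis and guard cell markers, 1 was measured (FMA, a guard cell transcription factor). Of 6 root markers, 2 were measured (the root hair expansins EXPA7 and EXPA18). None of these 3 passed the test between 24 h and dark in either genotype. Their changes in pif4pif5 were 0.42, -0.02 and 0.23, and those in wild type were 0.33, -0.26 and -0.29.

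HPR acts late in photorespiration, where it makes glycerate. In the dark its log2 intensity was 10.05, 10.14 and 10.81 in pif4pif5 seedlings and 9.61, 10.19 and 10.65 in wild-type seedlings. At 1 h it was 10.57, 10.80 and 10.37 in pif4pif5 and 10.50, 10.42 and 10.44 in wild type. At 24 h it was 11.86, 12.13 and 12.13 in pif4pif5 and 11.84, 12.04 and 12.03 in wild type. Every array at 24 h stood above every earlier array, and the genotypes overlapped at each time. The mean change from the dark was 1.71 in pif4pif5, a 3.26-fold higher intensity, and 1.82 in wild type, 3.52-fold. At 24 h the genotypes differed by 0.07 ± 0.22 (SE, pif4pif5 minus wild type), with a 95% interval of -0.39 to 0.54 and a limma adjusted p of 0.977.

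Of 15 listed genes of photorespiration and plastid nitrogen assimilation, 4 have a single-gene probe set, HPR among them. Of the 3 others, 2 were higher at 24 h in both genotypes, where 3.28% of all probe sets passed the test in both (limma, adjusted p under 0.05). AT1G32470 changed by 1.08 in pif4pif5 and 1.31 in wild type, with limma adjusted p of 0.000405 and 6.24e-05. AT1G11860 changed by 0.70 in pif4pif5 and 0.83 in wild type, with limma adjusted p of 0.013 and 0.00392. Its call in pif4pif5 was lost without pif4pif5 replicate B at 24 h (adjusted p = 0.0688 by limma) and without pif4pif5 replicate B in the dark (adjusted p = 0.0669). AT1G80380 had changes of 0.34 in pif4pif5 and 0.42 in wild type, with limma adjusted p of 0.287 and 0.164. HPR changed by more than each of the 3 in both genotypes, but HPR was selected for a large change.

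PIFI has been linked to electron flow through the plastid NDH complex, which returns electrons to plastoquinone. Its log2 intensity in the dark was 8.03, 7.04 and 8.38 in pif4pif5 and 7.53, 7.81 and 8.11 in wild type. After 1 h of far-red light it was 8.14, 7.98 and 7.75 in pif4pif5 and 7.88, 7.96 and 8.15 in wild type. After 24 h of far-red light it was 9.48, 9.43 and 9.54 in pif4pif5 and 9.60, 9.46 and 9.54 in wild type. The dark arrays of pif4pif5 were spread widely, with replicate B lowest, while the 6 arrays at 24 h lay close together and above all earlier ones. The change from the dark was 1.67 in pif4pif5 (3.17-fold) and 1.72 in wild type (3.29-fold). At 24 h the genotypes differed by -0.05, with a 95% interval of -0.55 to 0.45 (limma adjusted p = 0.987).

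Subunits of the NDH complex itself were measured for 3 of 17 listed genes. All 3 were higher at 24 h in pif4pif5, and 2 of 3 in wild type, where 4.24% and 4.48% of all probe sets passed the test upward. NdhL changed by 1.48 in pif4pif5 and 1.245 in wild type (limma adjusted p = 0.000129 and 0.000745). NdhN changed by 1.04 in pif4pif5 and 1.34 in wild type (limma adjusted p = 0.00136 and 0.000142). NdhS changed by 1.18 in pif4pif5 (limma adjusted p = 0.00369) and by 0.63 in wild type, where it missed the threshold (adjusted p = 0.121). None of the 3 differed between the genotypes at 24 h by the test. Their differences were 0.32 for NdhL, 0.00 for NdhN and 0.65 for NdhS. The difference between the changes in the genotypes was not tested.

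GSTU18 belongs to the plant-specific class of glutathione S-transferases, which join glutathione to other molecules. In the dark it read 7.17, 7.36 and 7.21 in pif4pif5 and 6.75, 6.77 and 7.35 in wild type. The 1 h arrays read 7.46, 7.64 and 7.11 in pif4pif5 and 7.20, 7.24 and 7.28 in wild type. The 24 h arrays read 8.89, 8.82 and 8.82 in pif4pif5 and 8.35, 8.60 and 8.46 in wild type. The genotypes overlapped in the dark and at 1 h and did not overlap at 24 h, where every pif4pif5 array was higher. The difference at 24 h was 0.38 ± 0.16 (SE), with a 95% interval of 0.04 to 0.71, and it did not pass after adjustment (limma adjusted p = 0.536). Its change from the dark was 1.60 in pif4pif5 and 1.51 in wild type, the smallest wild-type change among the members. Its genotype difference in the dark, 0.29, was also near the limit of 0.3. GSTU18 met the conditions in 11 of the 18 lists made with 1 array left out, and it did not meet them after quantile normalisation.

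**Figure D1:**
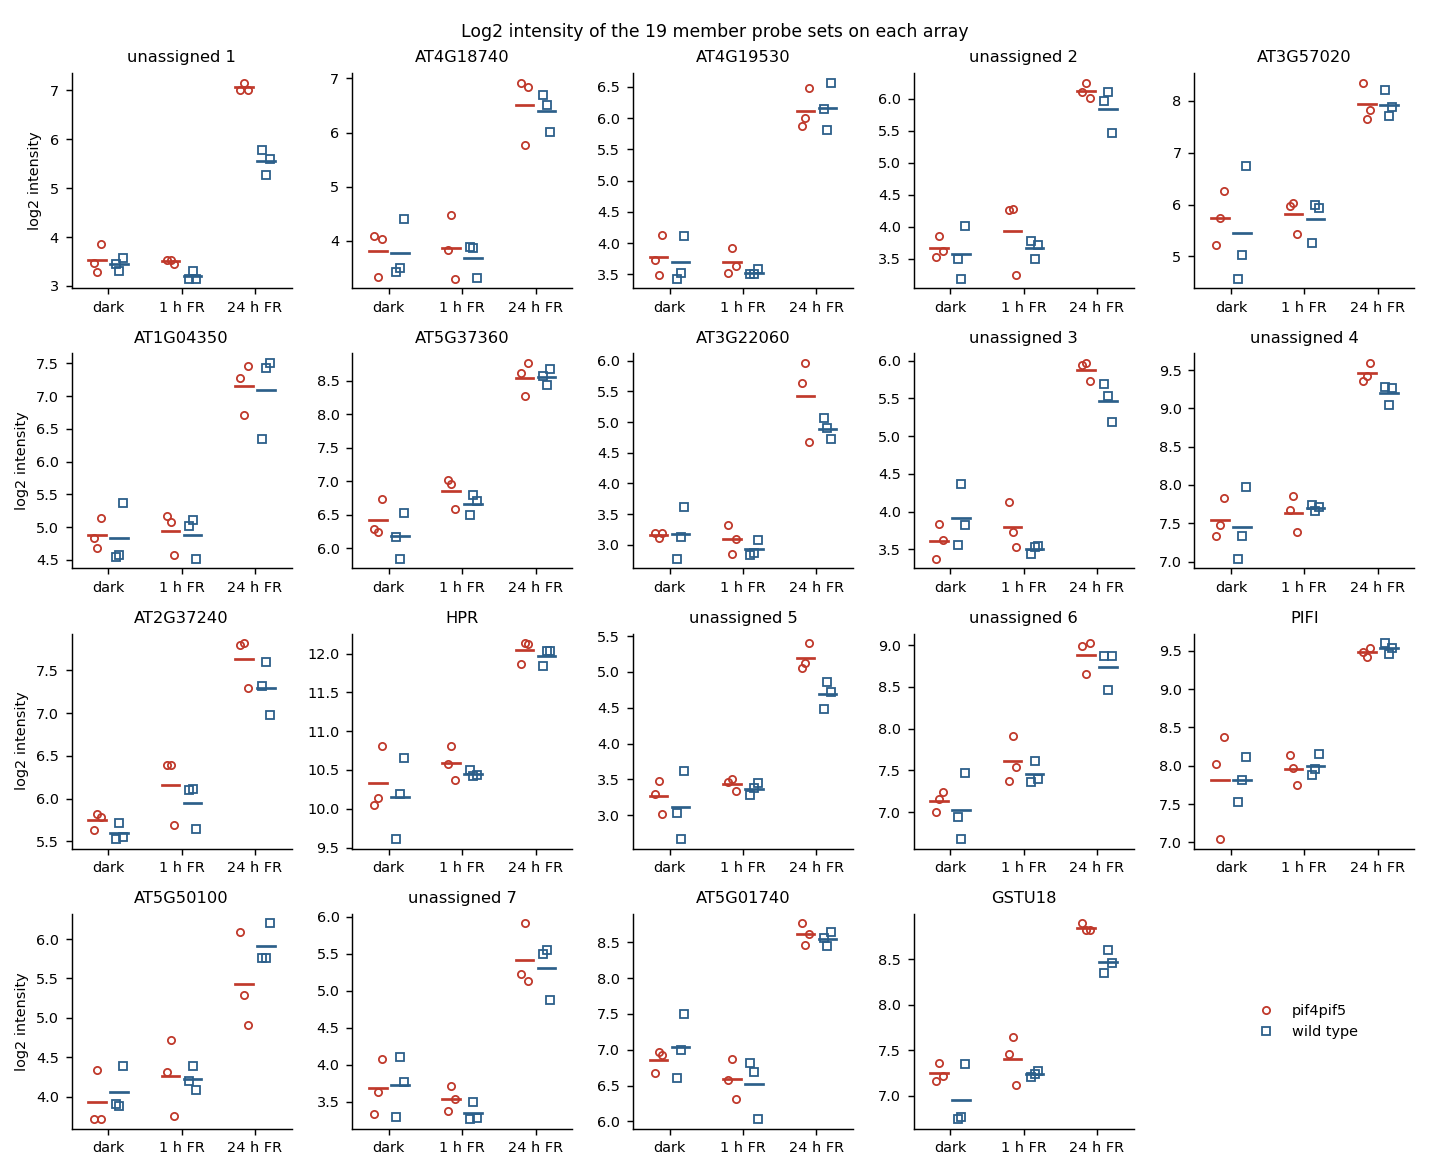
Log2 intensity in each array (points) and group means (horizontal lines) in the dark, after 1 h and after 24 h of far-red light, for the 19 members, with pif4pif5 left of wild type at each time. The 3 arrays at 24 h stand above the dark and 1 h arrays of the same genotype in each panel.

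Among the genes known by locus tag, AT4G18740 had the largest mean change. In the dark it read 4.10, 3.33 and 4.04 in pif4pif5 and 3.44, 3.50 and 4.40 in wild type. At 1 h it read 3.84, 4.48 and 3.31 in pif4pif5 and 3.88, 3.87 and 3.32 in wild type. At 24 h it read 6.92, 5.76 and 6.84 in pif4pif5 and 6.68, 6.51 and 6.02 in wild type. The 24 h arrays overlapped between the genotypes, with pif4pif5 replicate B lowest. The change was 2.68 in pif4pif5 and 2.62 in wild type, 6.42-fold and 6.17-fold.

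AT4G19530 read 3.73, 3.49 and 4.14 in pif4pif5 and 3.44, 3.53 and 4.12 in wild type in the dark. After 1 h of far-red light it read 3.53, 3.92 and 3.64 in pif4pif5 and 3.50, 3.50 and 3.58 in wild type. After 24 h of far-red light it read 5.87, 6.01 and 6.47 in pif4pif5 and 6.14, 5.81 and 6.56 in wild type. Replicate C was the highest array of each genotype at 24 h and in the dark. The change was 2.33 in pif4pif5 and 2.48 in wild type.

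AT3G57020 was spread widely in the dark. Its dark arrays read 5.21, 5.74 and 6.26 in pif4pif5 and 4.57, 5.03 and 6.74 in wild type. The 1 h arrays read 5.97, 6.03 and 5.43 in pif4pif5 and 5.25, 5.997 and 5.93 in wild type. The 24 h arrays read 8.34, 7.65 and 7.83 in pif4pif5 and 8.21, 7.71 and 7.87 in wild type. The genotypes overlapped at each time, and the highest dark array was wild-type replicate C. The change was 2.20 in pif4pif5 and 2.48 in wild type, and the genotypes differed at 24 h by 0.01 with a 95% interval of -0.83 to 0.86.

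AT1G04350 had dark readings of 4.83, 4.67 and 5.13 in pif4pif5 and 4.54, 4.57 and 5.37 in wild type. At 1 h it had 5.17, 5.08 and 4.57 in pif4pif5 and 5.02, 5.11 and 4.52 in wild type. At 24 h it had 7.27, 6.71 and 7.46 in pif4pif5 and 6.35, 7.43 and 7.50 in wild type. Its change was nearly equal, 2.27 in pif4pif5 and 2.26 in wild type, although wild-type replicate A at 24 h stood well below the other wild-type arrays.

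AT5G37360 had the smallest genotype difference of the named members at 24 h. Its dark arrays read 6.29, 6.25 and 6.74 in pif4pif5 and 6.17, 5.85 and 6.53 in wild type. At 1 h they read 7.02, 6.96 and 6.59 in pif4pif5 and 6.50, 6.80 and 6.71 in wild type. At 24 h they read 8.61, 8.27 and 8.76 in pif4pif5 and 8.57, 8.43 and 8.67 in wild type. The 24 h difference was -0.01 with a 95% interval of -0.41 to 0.39 (limma adjusted p = 0.996), and its sign turned when arrays were scaled to one median (0.03) or quantile normalised (0.04). Its 1 h change in wild type, 0.48, came closest of the wild-type changes to the limit of 0.5.

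AT3G22060 differed little between the dark and 1 h. Dark readings were 3.19, 3.11 and 3.19 in pif4pif5 and 2.78, 3.12 and 3.62 in wild type, and 1 h readings were 3.33, 2.86 and 3.10 in pif4pif5 and 2.83, 2.88 and 3.09 in wild type. After 24 h of far-red light it read 5.64, 5.96 and 4.68 in pif4pif5 and 5.06, 4.90 and 4.72 in wild type. The 2 highest arrays were pif4pif5 and the lowest was pif4pif5 too, so the genotypes overlapped. The change was 2.26 in pif4pif5 and 1.72 in wild type, and the 24 h difference of 0.53 had a 95% interval reaching up to 1.06 and down to just under 0 (limma adjusted p = 0.604).

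AT2G37240 read 5.63, 5.82 and 5.78 in pif4pif5 and 5.53, 5.71 and 5.56 in wild type in the dark. After 1 h of far-red light it read 6.39, 6.40 and 5.70 in pif4pif5 and 6.09, 6.11 and 5.64 in wild type. The 24 h arrays read 7.80, 7.82 and 7.29 in pif4pif5 and 7.32, 7.59 and 6.97 in wild type. Replicate C was lowest in both genotypes at 1 h and at 24 h. The change at 24 h was 1.89 in pif4pif5 and 1.69 in wild type. The change at 1 h was 0.415 in pif4pif5 and 0.35 in wild type, and replicates A and B at 1 h stood above every dark array. Without replicate C at 1 h of either genotype, AT2G37240 did not meet the conditions. It also missed them after quantile normalisation and with arrays shifted to one median.

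AT5G50100 read 3.72, 4.34 and 3.72 in pif4pif5 and 3.91, 3.89 and 4.38 in wild type in the dark. The 1 h arrays read 4.32, 4.72 and 3.76 in pif4pif5 and 4.20, 4.39 and 4.08 in wild type. The 24 h arrays read 6.09, 5.29 and 4.91 in pif4pif5 and 5.76, 5.76 and 6.20 in wild type. The pif4pif5 arrays at 24 h were spread widely and overlapped the wild-type ones. It was the member with the most negative genotype difference at 24 h, -0.47 with a 95% interval of -1.05 to 0.11 (limma adjusted p = 0.728), and its pif4pif5 change of 1.501 was the smallest that met the condition, beside 1.84 in wild type.

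AT5G01740 read 6.68, 6.97 and 6.93 in pif4pif5 and 6.60, 7.004 and 7.50 in wild type in the dark. The 1 h arrays read 6.58, 6.88 and 6.31 in pif4pif5 and 6.82, 6.69 and 6.04 in wild type. The 24 h arrays read 8.76, 8.46 and 8.62 in pif4pif5 and 8.56, 8.44 and 8.65 in wild type. Its mean was lower at 1 h than in the dark, by -0.27 in pif4pif5 and -0.52 in wild type, and its 24 h changes were 1.752 in pif4pif5 and 1.517 in wild type. Its 24 h arrays overlapped, with a genotype difference of 0.06.

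The unnamed probe set 265724_at (unassigned 1) had the largest mean change of the 19. In the dark it read 3.46, 3.27 and 3.85 in pif4pif5 and 3.45, 3.30 and 3.57 in wild type. The 1 h arrays read 3.53, 3.54 and 3.44 in pif4pif5 and 3.15, 3.31 and 3.15 in wild type. At 24 h it read 7.01, 7.15 and 7.01 in pif4pif5 and 5.78, 5.26 and 5.60 in wild type. All 3 pif4pif5 arrays at 24 h stood above all wild-type ones, and at 1 h too the groups did not overlap, with pif4pif5 higher, while the dark groups overlapped. The change was 3.53 in pif4pif5 (11.5-fold) and 2.11 in wild type (4.32-fold). Its 1 h genotype difference of 0.30 was the nearest to the limit of the window, and it met the conditions in 16 of the 18 lists made with 1 array left out.

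Probe set 255331_at (unassigned 2) read 3.53, 3.86 and 3.63 in pif4pif5 and 3.50, 3.19 and 4.02 in wild type in the dark. At 1 h it read 4.26, 4.27 and 3.25 in pif4pif5 and 3.78, 3.50 and 3.71 in wild type. After 24 h of far-red light it read 6.11, 6.25 and 6.01 in pif4pif5 and 5.97, 6.11 and 5.47 in wild type. Its change was 2.45 in pif4pif5 and 2.28 in wild type, and the genotypes overlapped at 24 h. The changes of the 7 unnamed probe sets ran from 1.74 to 3.53 in pif4pif5 and from 1.56 to 2.28 in wild type.

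**Figure D2:**
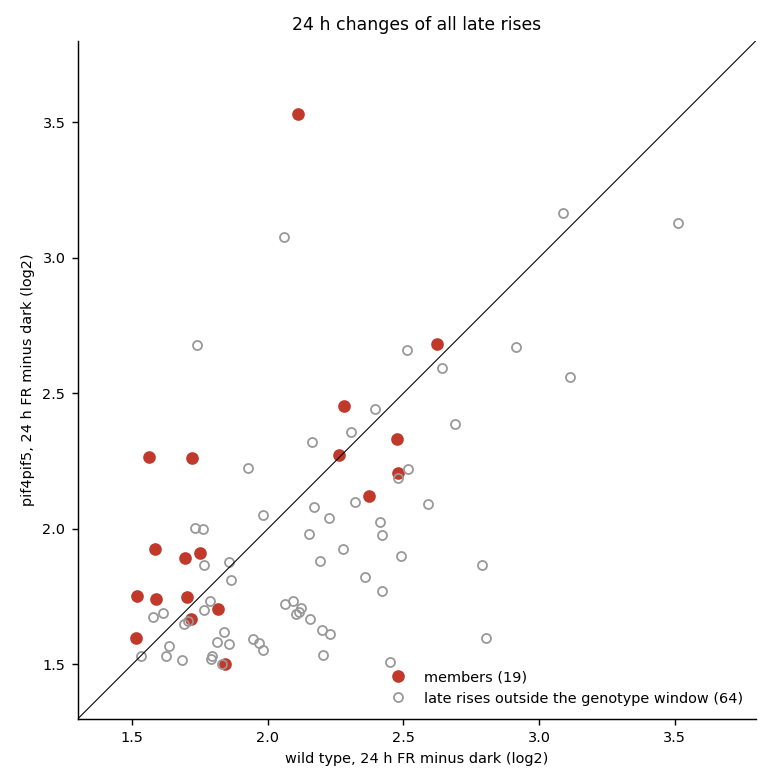
Change from dark to 24 h of far-red light (log2) in pif4pif5 against the change in wild type, for the 19 members and the 64 other late-rising probe sets. Points above the diagonal changed more in pif4pif5, which holds for 13 of the 19 members and 15 of the 64 others.

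Across the 19, the change at 24 h had a median of 1.93 in pif4pif5 (lowest 1.501, highest 3.53), a 3.8-fold higher intensity. In wild type it ran from 1.51 to 2.62, with a median of 3.36-fold higher intensity. Over all probe sets the log2 medians were -0.04 in pif4pif5 and -0.12 in wild type. These values chose the members, so they are a description. The lowest 24 h array of each member stood above its highest dark or 1 h array by 0.19 to 3.16 in pif4pif5 and by 0.78 to 1.70 in wild type. At 1 h the median change was 0.14 in pif4pif5 and 0.16 in wild type, with 14 and 12 of 19 above 0.

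Within the window of 0.3 the members still leaned to one side. The pif4pif5 mean was above the wild-type mean in 13 of 19 in the dark, with a median difference of 0.09, and in 17 of 19 at 1 h, with a median of 0.16. Over all probe sets the medians were -0.05 in the dark and -0.02 at 1 h. The members' differences entered the rule that chose them, so the lean is a description with no test. Of the 18 arrays, wild-type dark replicate C was the highest of its 3 in 16 of 19 members, as it was for 72.3% of all probe sets. The pif4pif5 replicate C at 1 h was the lowest of its 3 in 15 of 19, and in 37.4% of all probe sets. Without wild-type dark replicate C, 8 probe sets met the conditions, and without pif4pif5 replicate C at 1 h, 11 did. Their part in the choice of members beyond these counts was not tested.

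The comparison of pif4pif5 with wild type at 24 h was not itself a condition, though the 24 h arrays enter through the 24 h changes. By limma, 83 of 22746 probe sets passed (adjusted p under 0.05), which is 0.365%, 18 of them higher in pif4pif5 (0.0791%) and 65 lower (0.286%). That count depended on single arrays at 24 h: it was 55, 34 and 38 without pif4pif5 replicates A, B and C, and 21, 24 and 178 without wild-type replicates A, B and C. Among the members, 1 passed upward and 0 downward, and 3 had an unadjusted p under 0.05, as had 1881 of all 22746 probe sets. The 1 was unassigned 1, higher by 1.51 ± 0.16 (SE), 2.85-fold, with a 95% interval of 1.18 to 1.84 (limma adjusted p = 7.33e-05).

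The other 18 members had differences from -0.47 to 0.53 that missed the threshold, and their median with unassigned 1 was 0.11, against 0.00 over all probe sets. The mean was higher in pif4pif5 for 15 of 19. The arrays did not overlap, with pif4pif5 above, in 5 of 19 (unassigned 1, 3, 4 and 5 and GSTU18), against 6.75% of all probe sets, and with pif4pif5 below in 0 of 19, against 6.41%. Unassigned 5 had 5.05, 5.12 and 5.40 in pif4pif5 and 4.49, 4.86 and 4.72 in wild type, a difference of 0.50 with a 95% interval of 0.10 to 0.91 (limma adjusted p = 0.444). The groups of 3 arrays allow an exact two-sided permutation p no lower than 0.1 for any single probe set. The 3' minus 5' signal of the actin control probe sets, a sign of RNA integrity, was 2.045 to 2.099 in pif4pif5 and 1.74 to 1.94 in wild type at 24 h, without overlap, and that of GAPDH was 0.11 to 0.50 and 0.22 to 0.53. Their part in the 24 h differences was not tested.

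**Figure D3:**
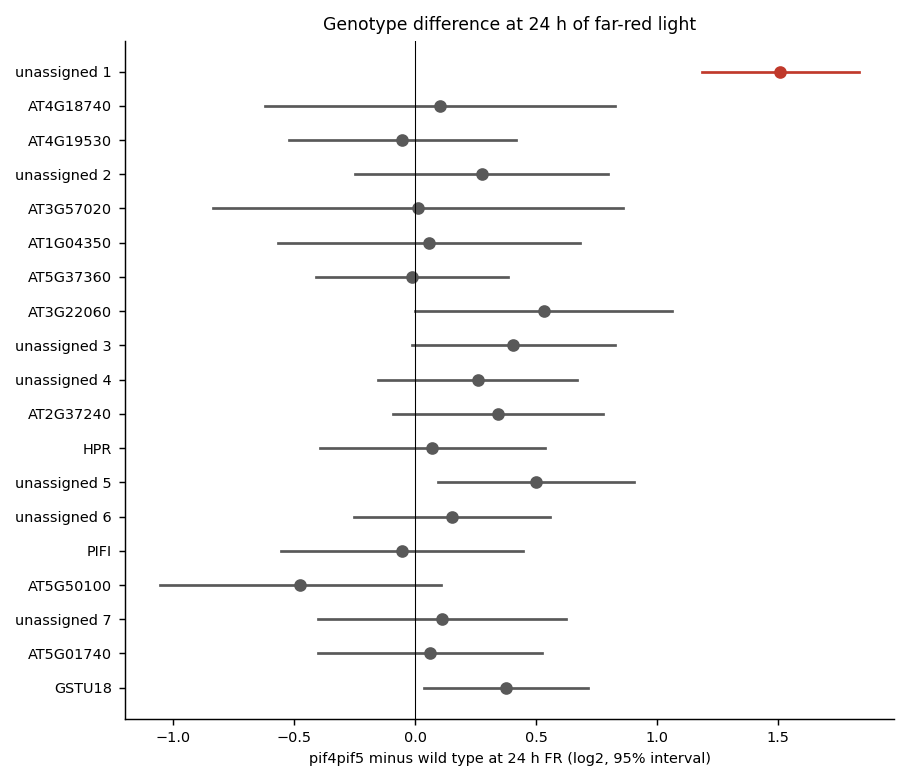
Difference between pif4pif5 and wild type at 24 h of far-red light (log2) for each member, with its 95% interval. Unassigned 1 stands apart at 1.51, and the other 18 lie between -0.47 and 0.53.

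The 19 are part of 83 probe sets with a late rise of this size and no early rise of 0.5 or more. The other 64 fell outside the genotype window. In 61 of them pif4pif5 was higher by more than 0.3 in the dark, at 1 h or at both, in 2 it was lower, and in 1 it was lower in the dark and higher at 1 h. Their change at 24 h was larger in pif4pif5 in 15 of 64, against 13 of 19 members, and the median of the pif4pif5 change minus the wild-type change was -0.25, against 0.08. A larger dark level in pif4pif5 lowers its change from the dark by construction, so the rule itself leads to this contrast, and no test is given. At 24 h the median genotype difference was 0.11 over the 19 members and 0.28 over the 64 others. It was above 0 in 15 of 19 members and in 55 of 64 others, with 1 call in each set.

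**Figure D4:**
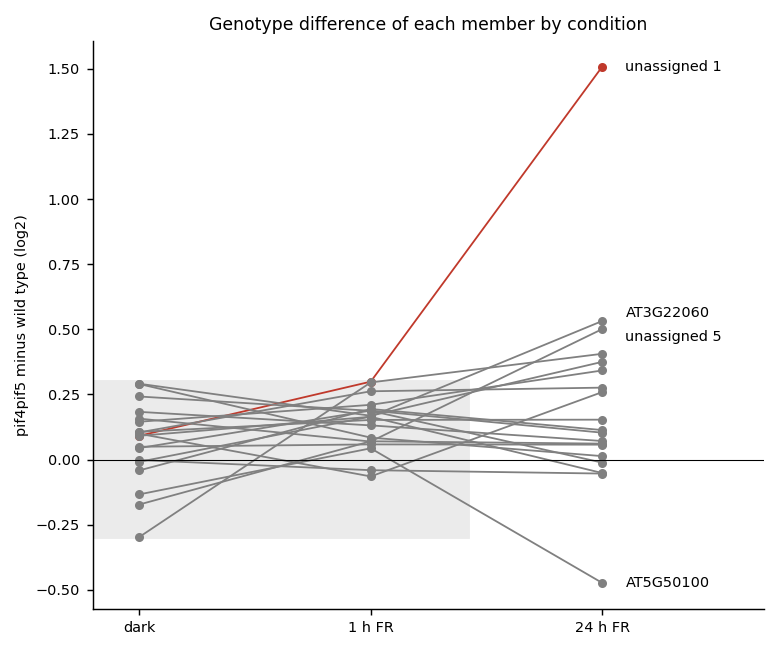
Difference between pif4pif5 and wild type (log2) in the dark, at 1 h and at 24 h of far-red light for the 19 members. The dark and 1 h values lie within 0.3 by the rule, and at 24 h they run from -0.47 to 1.51.

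Some probe sets narrowly missed. AT5G02160 had 1.48 in pif4pif5, beside 1.501 for AT5G50100 inside, and 6 probe sets failed that condition alone. AT1G33811 had 1.35 in wild type, beside 1.51 for GSTU18 inside, and 10 failed that one alone. AT4G15680 had a 1 h change of 0.53 in wild type, beside 0.48 for AT5G37360. On the genotype window, AT1G29700 had 0.34 in the dark, beside -0.30 for unassigned 3, and AT3G01060 had 0.31 at 1 h, beside 0.30 for unassigned 1. For pif4pif5 at 1 h the highest value inside was 0.47 (unassigned 6), and 0 probe sets failed that condition alone.

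Genes of neighbouring functions were read from lists of plastid and light-related genes, of which few have a single-gene probe set. In pif4pif5, 6 of 6 photosystem and antenna genes, 3 of 3 Calvin cycle genes and 4 of 5 genes of thylakoid electron transport were higher at 24 h, where 4.24% of all probe sets passed upward. In wild type the counts were 6 of 6, 3 of 3 and 5 of 5, where 4.48% of all passed upward, and these shares hold for the lists that follow too. They depend on the scaling of the arrays: 964 probe sets passed upward and 1641 downward in pif4pif5, against 1791 and 1014 with arrays shifted to one median and 1397 and 1432 after quantile normalisation. In wild type 1018 passed upward and 1541 downward, against 1506 and 863 with the shift and 1473 and 1297 after quantile normalisation. PRK, the phosphoribulokinase of the Calvin cycle, changed by 0.74 in pif4pif5 and 0.53 in wild type, and its wild-type call (limma adjusted p = 0.0446) was lost in 15 of the 18 fits with 1 array left out, with adjusted p up to 0.138. It was kept without pif4pif5 replicate B at 24 h, pif4pif5 dark replicate C or wild-type dark replicate C. It was also lost after quantile normalisation and on single-gene probe sets, which leaves 2 of 3 Calvin cycle genes higher in wild type. Chlorophyll synthesis had 4 of 8 higher in both genotypes. In wild type 2 of the 8 were higher without pif4pif5 replicate B at 1 h, wild-type replicates A or B at 1 h or at 24 h, or wild-type dark replicate C. HEME1, an enzyme of that pathway, was the only measured gene of the lists that differed between the genotypes at 24 h (0.93 higher in pif4pif5, limma adjusted p = 0.0154). Its mean was already higher in pif4pif5 in the dark, by 0.54, and at 1 h, by 0.695, differences that were not tested.

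Plastid thioredoxins had 4 of 6 higher in both genotypes and 1, TY1, lower in pif4pif5. TY1 missed the threshold without any 1 of pif4pif5 replicates A, B or C at 24 h or A or B in the dark, and under either rescaling of the arrays. TRXF2, an f-type thioredoxin, changed by 1.503 in pif4pif5 and 1.83 in wild type. Photoprotection and carotenoid genes had 2 of 5 higher in both genotypes, and 1 lower in wild type. In pif4pif5 1 was higher without any 1 of the pif4pif5 dark arrays, the wild-type 1 h arrays, pif4pif5 replicate B at 1 h or pif4pif5 replicates A or B at 24 h, and in wild type 1 was higher without wild-type replicate A or B at 24 h. The 1 lower, SAPX, a stromal ascorbate peroxidase, lost its call in 15 of the 18 fits with 1 array left out, all but those without pif4pif5 replicate A at 1 h, wild-type replicate A at 24 h or wild-type dark replicate C. It was also lost under either rescaling of the arrays and on single-gene probe sets, and kept when the lowest probe sets were left out.

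Starch metabolism had 0 of 2 higher and 1 lower in both genotypes. The 1 was DPE1, a plastid glucanotransferase, at -0.71 in pif4pif5 and -0.69 in wild type, where 7.21% and 6.77% of all probe sets passed downward. Without pif4pif5 replicate A at 1 h or wild-type dark replicate A, 2 were lower in wild type. Of the genes of reserve use, only ICL, isocitrate lyase, was measured, at -0.67 in pif4pif5 and -1.11 in wild type, past the threshold in both. Its pif4pif5 call was lost without pif4pif5 replicate B at 24 h or C in the dark, and, like the DPE1 calls, when arrays were scaled to one median. The pif4pif5 call of DPE1 was also lost after quantile normalisation. None of the listed plastid sigma factor or GLK genes (0 of 8) was measured.

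**Figure D5:**
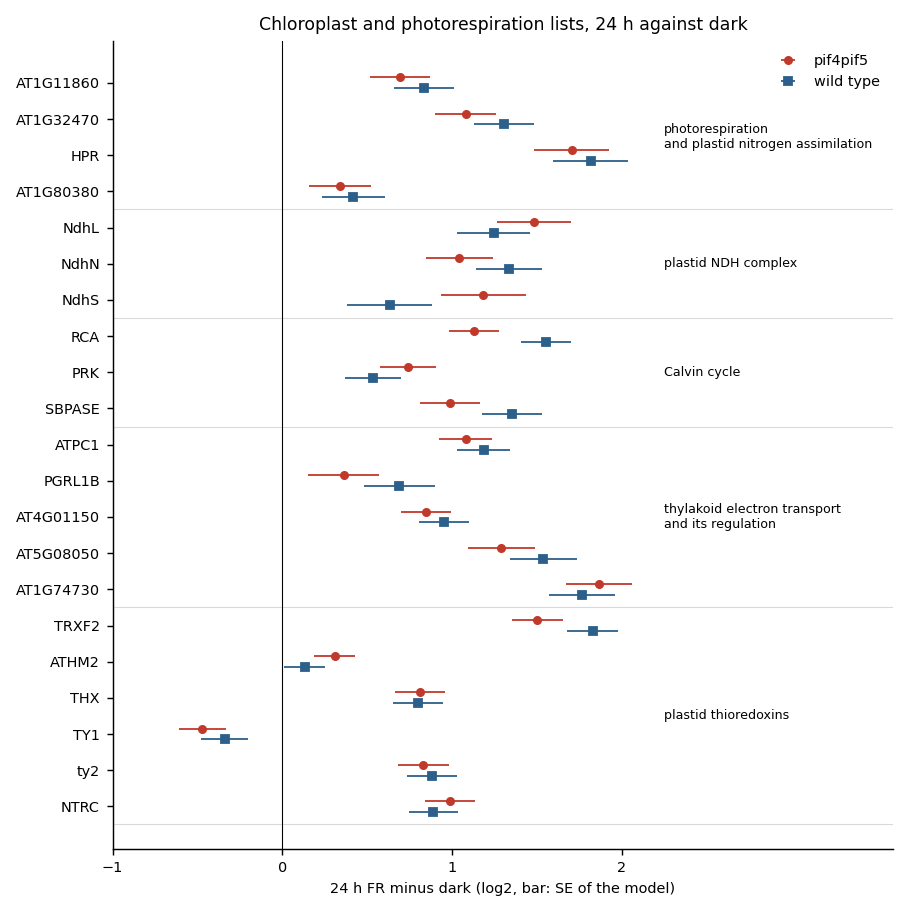
Change from dark to 24 h of far-red light (log2) in pif4pif5 (upper of each pair) and wild type for the measured genes of the lists named at the right, with the standard error of the model. HPR stands at 1.71 in pif4pif5 and 1.82 in wild type, above AT1G32470 at 1.08 and 1.31.

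The 12 named members are spread over the 5 nuclear chromosomes, with 3, 1, 3, 2 and 3 on chromosomes 1 to 5, and none lies next to another. Of the 24 genes directly beside them, 9 have a single-gene probe set, and 0 of these 9 were higher at 24 h in both genotypes by the test, against 3.28% of all probe sets. AT3G57030, beside AT3G57020, passed in pif4pif5 with a change of 0.49 (limma adjusted p = 0.0137) and missed in wild type (adjusted p = 0.131).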

How the data were processed

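RNA of whole seedlings was hybridised to 18 one-colour Affymetrix arrays, 3 in each of 6 groups. The deposited values are log2 intensities per probe set that the authors made with RMA, per the submitters' processing notes. Its version and settings remain not given in the sources used here. Groups followed the sample labels. The table held 0 columns of other series. Control probe sets with the AFFX prefix stayed out of the tests, and no filter on low values was applied, so all 19 members were tested.

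The means of the 6 groups were estimated together in limma 3.58.1 (lmFit and eBayes, R 4.3.3), over 22746 probe sets, and p-values were adjusted by Benjamini-Hochberg within each comparison, with a threshold of 0.05. The code was tested on simulated data. The number of arrays limits the precision.

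Names came from the platform's gene table, updated through RefSeq's TAIR10.1 gene table, which also gave neighbouring genes. The files name no genome build, so no coordinates are given. The members and the gene lists were chosen with earlier results of these data known. Every member naming 1 gene could be named, with values in every array for the largest changes, the smallest genotype differences, and genes with a listed or annotated role. Values at the thresholds were given for the nearest member and non-member. From each list, up to 3 called genes could be named, or the gene with the lowest p where none was called. Of the members with no assigned gene, 2 were given by probe set. TY1, AT1G80380, AT3G57030 and the array values of unassigned 5 fall outside that rule and were chosen after their values were seen.

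The alternatives were quantile normalisation, a shift of every array to one median, the replicate letter as a block, leaving out each array in turn, leaving out low probe sets or those not naming 1 gene, and other thresholds of the rule.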

Additional observations from a re-analysis of the deposited data

How the results depend on the processing

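The count of members was 19. It was 35 with the threshold on the 24 h change lowered by 0.25, 7 with it raised by 0.25, 12 with a genotype window of 0.2 and 26 with one of 0.4, and it ran from 8 to 21 with 1 array left out. The lowest was without wild-type dark replicate C, and it was 11 without pif4pif5 replicate C at 1 h. Of the 19, 1 (AT3G22060) was in all 18 such lists, and the fewest lists for any member were 9 (unassigned 3). AT3G22060, unassigned 5 and unassigned 7 were among the low probe sets, with a mean log2 intensity over all arrays of 4.21 or less. Their dark means, and those of unassigned 1, 2 and 3, AT4G18740, AT4G19530 and AT5G50100, were under 4.21 in both genotypes. The part of low intensity in meeting the 1 h and genotype conditions was not tested. Quantile normalisation gave 17 members, 14 of them shared, and a shift to one median gave 19, 14 of them shared. Unassigned 1 was in neither list.

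Probe sets passing between pif4pif5 and wild type at 24 h numbered 83, 40 when probe sets of several genes or none were left out, and 21 to 178 with 1 array left out. For 24 h against dark in pif4pif5 the count was 2605, 1181 on single-gene probe sets, and 1543 to 3538 with 1 array left out, lowest without pif4pif5 dark replicate B. For wild type it was 2559, 1220 on single-gene probe sets, and 1676 to 3814 with 1 array left out, lowest without wild-type replicate C at 24 h. The single-gene counts come from fits on fewer probe sets. The cause of these differences in count was not tested. The 1 member called, unassigned 1, drops out of that single-gene test, which leaves 0, and in every other fit it stayed called, at 1.37 to 1.63 with 1 array left out and adjusted p of 2.97e-05 to 0.000867 by limma over the alternatives.

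Genotype differences at 24 h near 0 changed sign. AT5G37360 was 0.030 with arrays shifted to one median and 0.043 after quantile normalisation, and AT4G19530 was 0.009 after quantile normalisation. With 1 array left out the range was -0.102 to 0.474 for AT4G18740, -0.232 to 0.144 for AT4G19530, -0.189 to 0.158 for AT3G57020, -0.316 to 0.275 for AT1G04350, -0.121 to 0.127 for AT5G37360, -0.014 to 0.139 for AT5G01740 and -0.131 to 0.258 for unassigned 7. The cause was not tested. A shift to one median moved the median 24 h change of all probe sets in pif4pif5 to 0.11, against -0.04 as deposited, and in wild type to -0.02, against -0.12.

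Whether the replicate letters mark paired arrays was not settled. Deviations of the same letter at 24 h correlated at 0.015, 0.131 and 0.346 between the genotypes for A, B and C. Between 24 h and dark they correlated at 0.031, 0.229 and 0.319 in pif4pif5 and at -0.034, 0.141 and 0.209 in wild type. At 24 h, 1 of 3 pif4pif5 and 2 of 3 wild-type arrays correlated best with their own letter. With the replicate block, 118 probe sets passed between the genotypes at 24 h, 2961 between 24 h and dark in pif4pif5 and 3051 in wild type, and 1 member passed.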
